A study of Mus musculus with 9 samples.

Results

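Txnip, 4 further alpha-arrestin genes and the thioredoxin system were followed in the hearts of mice that had received a vector carrying oncostatin M. The 9 genes were taken by symbol from a table of 13192 named genes: the alpha-arrestins Txnip, Arrdc1, Arrdc2, Arrdc3 and Arrdc4, the thioredoxins Txn1 and Txn2, and the thioredoxin reductases Txnrd1 and Txnrd2. All 9 were in the table and all 9 were tested. The set was selected on the CPM and log2 fold change of Txnip in the comparison below, which had already been seen. The differences of the 9 genes between the groups are therefore given as a description, with standard errors and without printed p-values. Counts of the 9 genes past a threshold are given beside those over all genes, and nothing is read from them.

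The tested hearts came from male wildtype C57BL/6J mice injected at 10 weeks of age with 1e+11 viral particles of AAV-Osm, an adeno-associated virus carrying the gene of the cytokine oncostatin M (5 libraries). Their controls were male wildtype C57BL/6J mice given the same dose of AAV-Null, the control vector, at the same age (4 libraries). The series describes 5 samples per group, so 1 further control was not analysed here. Both vectors went into the right gastrocnemius, a leg muscle, and the apex of the heart was taken 12 weeks later, so every mouse carried AAV and the heart was not the injected organ. The sources used here do not name the promoter that drives the vector, and the transcript of the delivered gene was not analysed here.

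Total counts ran from 11841106 to 30625134 per library. The ribosomal RNA precursor Rn45s held the most counts in every library. Its share was 8.1% to 15.6% in AAV-Osm and 8.8% to 12.1% in AAV-Null hearts. All 5 cardiomyocyte markers (Myh6, Tnnt2, Actc1, Ryr2 and Myl2) were present, and their summed level was 56696 to 76545 CPM (counts scaled to library size with TMM factors) in AAV-Osm hearts and 60995 to 75219 CPM in AAV-Null hearts. Liver-type transcripts (8 of 8 listed markers present) summed to 6.65 to 63.2 CPM in AAV-Osm and 7.12 to 173 CPM in AAV-Null hearts, highest in AAV-Null 3 and AAV-Null 4. The first principal component of log2 CPM held 35.6% of the variance and did not follow the groups: AAV-Osm 5 lay at one end and AAV-Null 4 at the other. In tissue RNA such as this, fewer cells of a type and less RNA per cell cannot be told apart. The labels do not state that each library came from its own mouse, so errors and p-values here cover only how these 9 samples spread, which may be technical.

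Thioredoxins are small proteins that reduce disulfide bonds in other proteins, and thioredoxin reductases, which are selenoproteins, restore them with electrons from NADPH. Txn1 and Txnrd1 encode the cytosolic pair, and Txn2 and Txnrd2 the mitochondrial pair. TXNIP binds thioredoxin through a mixed disulfide and blocks its activity. It belongs to the alpha-arrestins, a family with an arrestin fold that links membrane proteins to ubiquitin ligases of the NEDD4 family and to endocytosis, and TXNIP lowers glucose uptake through the transporters GLUT1 and GLUT4. Txnip transcription is known to respond to glucose through the factors MondoA (Mlxip) and ChREBP (Mlxipl), which pair with Mlx at carbohydrate response elements, and Arrdc4 is known as another target of these factors.

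RefSeq promoter windows were found for all 9 genes (13 windows, GRCm38.p6, the assembly of mm10), and the 250 bases before each start were searched on both strands for 7 motifs. The promoters of Txnip and Arrdc4 are shown because these related genes share known regulators and differed in level and pattern in the heart. That of Txnrd1 is shown for its match to the antioxidant response element, bound by NRF2. Capitals mark every match to a searched motif. Sequences run 5′ to 3′ on the strand of the gene and end at the base before the start.
Txnip, chr3:96557707-96557956, plus strand: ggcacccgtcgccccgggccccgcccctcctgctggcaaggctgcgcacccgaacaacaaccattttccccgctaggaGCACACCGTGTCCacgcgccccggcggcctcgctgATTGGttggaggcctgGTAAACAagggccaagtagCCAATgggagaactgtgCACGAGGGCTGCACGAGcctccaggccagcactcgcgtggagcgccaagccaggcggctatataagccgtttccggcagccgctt
Arrdc4, chr7:68749239-68749488, minus strand: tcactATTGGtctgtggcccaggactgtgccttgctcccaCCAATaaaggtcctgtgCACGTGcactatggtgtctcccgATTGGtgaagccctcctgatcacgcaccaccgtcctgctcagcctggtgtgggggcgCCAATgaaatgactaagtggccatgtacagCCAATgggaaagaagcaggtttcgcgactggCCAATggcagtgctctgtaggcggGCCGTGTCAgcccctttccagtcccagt
Txnrd1, chr10:82858956-82859205, plus strand: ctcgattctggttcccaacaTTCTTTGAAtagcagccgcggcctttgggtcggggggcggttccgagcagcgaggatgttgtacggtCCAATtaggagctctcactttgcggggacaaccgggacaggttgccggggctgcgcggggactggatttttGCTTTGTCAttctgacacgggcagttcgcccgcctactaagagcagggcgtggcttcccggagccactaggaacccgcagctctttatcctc

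The Txnip window held 1 match to the carbohydrate response element, searched as 2 CACGNG units 5 bases apart, at bases 85 to 69 before the start. Its letters were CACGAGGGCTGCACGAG. The motif was present in 15 of 32851 windows (0.0457%), and Txnip was the only gene of the 9 with it. The same window held 2 CCAAT boxes, the element bound by NF-Y (searched as CCAAT, present in 33.8% of all windows), at bases 137 to 133 and 102 to 98. Between them lay a FoxO element (GTAAACA, 3.17% of windows) at bases 121 to 115, and farther upstream a match to a loosely written glucocorticoid response element, GNACA and TGTNC 3 bases apart (0.387% of windows). The Arrdc4 window held 6 CCAAT boxes and an E-box (CACGTG, 6.02% of windows), which is the single unit from which a carbohydrate response element is built, and a match to the antioxidant response element TGACNNNGC (10.2% of windows). In the Txnrd1 window shown, that element lay at bases 92 to 84. The STAT element TTCNNNGAA (7.02% of windows), a motif of the STAT factors that act downstream of oncostatin M receptors, was found before Txnrd1 and Txn2 and in no window of the alpha-arrestins. Txnip, Arrdc2, Arrdc3, Arrdc4, Txn2 and Txnrd1 had a CCAAT box. Such matches are letters in a window and do not show binding.

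Per length, the mitochondrial thioredoxin was the most abundant transcript and the alpha-arrestins other than Txnip the least. Levels are in CPM per kb of summed exon length. Txn2 averaged 226 ± 30.9 in AAV-Osm hearts and 244 ± 13.3 in AAV-Null hearts (CPM per kb, SD, n = 5 and 4). Txnip followed with 157 ± 30.9 in AAV-Osm and 82.2 ± 14.2 CPM per kb in AAV-Null hearts. Txn1 stood at 71.1 ± 17.0 in AAV-Osm and 76.8 ± 10.3 CPM per kb in AAV-Null hearts. The reductases were lower, with Txnrd2 at 30.7 ± 5.07 in AAV-Osm and 29.7 ± 3.92 CPM per kb in AAV-Null hearts and Txnrd1 at 8.20 ± 1.51 in AAV-Osm and 8.23 ± 1.71 CPM per kb in AAV-Null hearts. Txn2 ranked at the 97.5th percentile of all genes on this scale, Txnip at the 95.4th and Txnrd1 at the 63.8th (means over 9 libraries). The remaining alpha-arrestins lay between 1.44 and 8.37 CPM per kb across all libraries, with mean percentiles from 37.9 (Arrdc2) to 45.9 (Arrdc3).

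**Figure D1:**
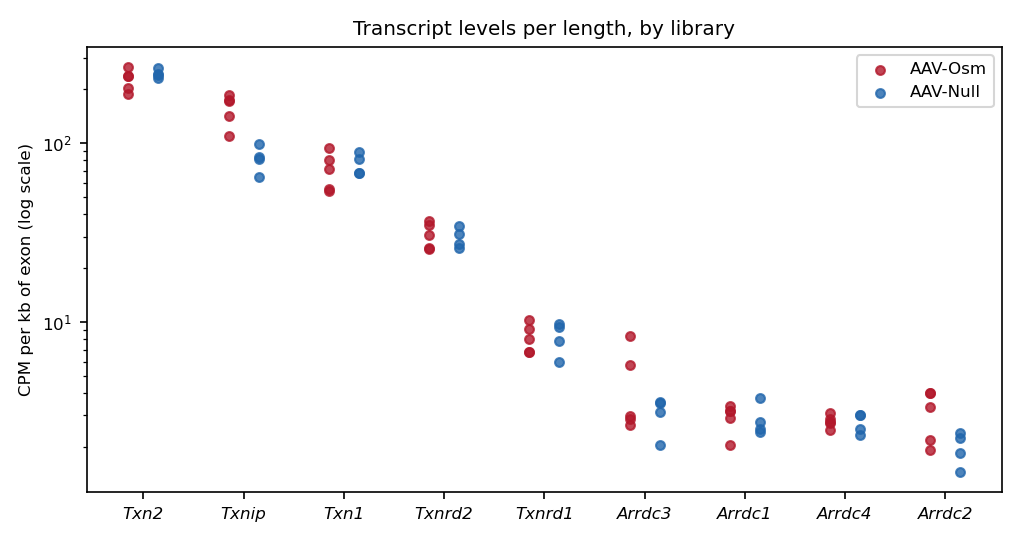
Transcript levels of the 9 genes in CPM per kb of exon (log scale) for each AAV-Osm library (n = 5) and AAV-Null library (n = 4), ordered by the mean over all libraries. Txn2 lies above every other gene, the AAV-Osm points of Txnip lie above its AAV-Null points, and Arrdc3, Arrdc1, Arrdc4 and Arrdc2 overlap at the bottom.

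In that order the ranges over the 9 libraries were apart for Txn2 and Txnip, for Txn1 and Txnrd2, and for Txnrd2 and Txnrd1. The first gap was narrow, with the lowest Txn2 at 188.0 and the highest Txnip at 186.8 CPM per kb. Txnip and Txn1 overlapped, with Txnip the higher of the pair in 8 of 9 libraries, the exception being AAV-Null 4. Txnrd1 exceeded Arrdc3 in all 9 libraries, although their ranges overlapped. The lowest 4 genes did not differ in level beyond their spread. Arrdc3 was above Arrdc1 in 5 of 9 libraries, Arrdc1 above Arrdc4 in 7 and Arrdc4 above Arrdc2 in 6.

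Txnip (chromosome 3, 96557957 to 96561857, plus strand, mm10) was the member with the largest difference between the groups. It had 308, 397, 485, 523 and 481 CPM in AAV-Osm 1 to 5, against 228, 278, 235 and 180 CPM in AAV-Null 1 to 4. The groups did not overlap: AAV-Osm 1, the lowest of its group, lay above AAV-Null 2, the highest of the controls. The mean was 439 ± 86.5 CPM in AAV-Osm and 230 ± 39.9 CPM in AAV-Null hearts (SD, n = 5 and 4), a fold of 1.91 and a log2 fold change of 0.93 (SE 0.18). Over all genes, 0.424% had a log2 fold change at least as high, and 1.05% had groups that did not overlap with AAV-Osm higher (2.28% in either direction). Txnip was the 1 gene of the 9 in that class. The relative spread within groups was similar, with a coefficient of variation of 19.7% in AAV-Osm and 17.3% in AAV-Null hearts.

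**Figure D2:**
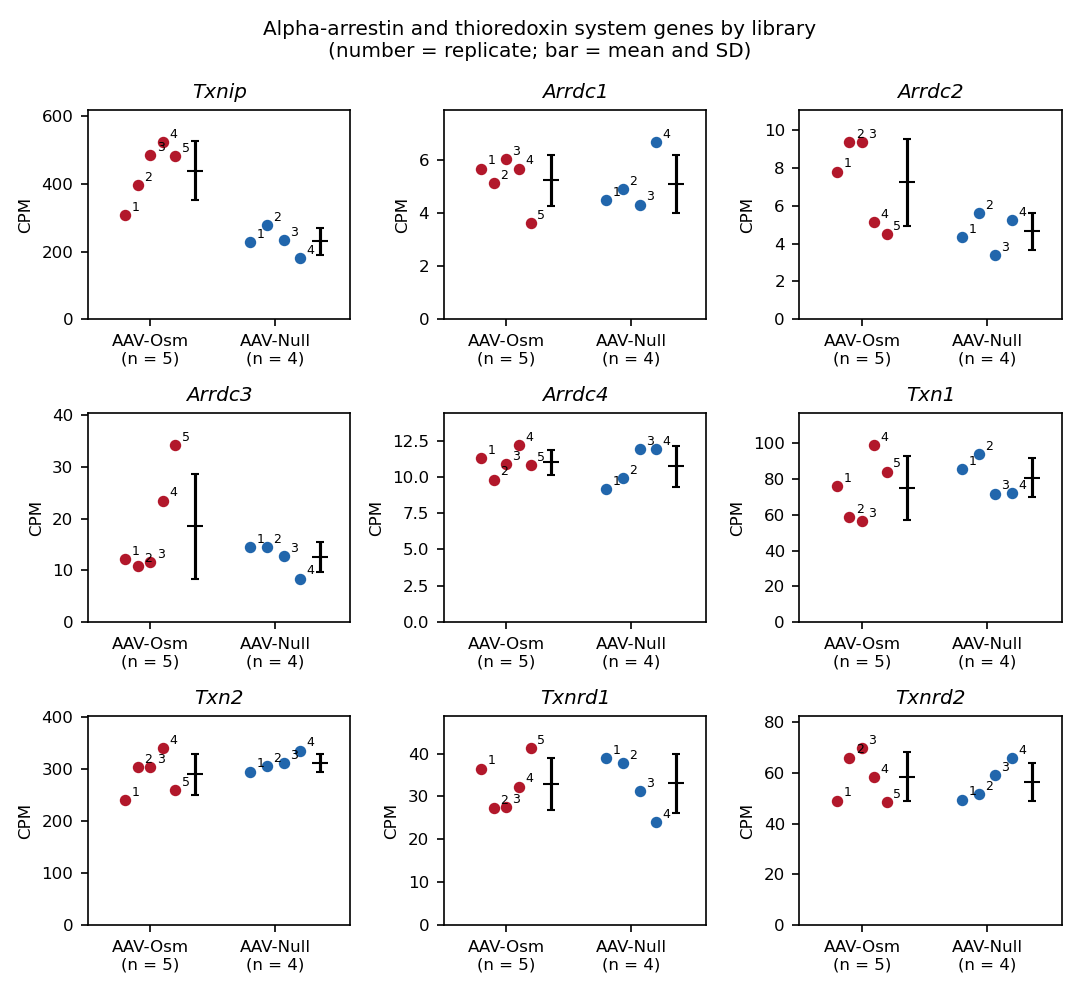
CPM of each of the 9 genes in every library, with AAV-Osm (n = 5) left of AAV-Null (n = 4); numbers name the replicate, and bars give the mean and SD. Txnip is the only gene whose groups do not overlap, Arrdc2 is high in AAV-Osm 1, 2 and 3, and Arrdc3 is high in AAV-Osm 4 and 5.

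Of the 9 genes, 0 passed an adjusted p under 0.05 in edgeR's quasi-likelihood test, where 0.121% of all 13192 genes did (0.0834% with AAV-Osm higher and 0.0379% with AAV-Osm lower). At an unadjusted p under 0.05 edgeR gave 2 of the 9, Txnip and Arrdc2, both higher in AAV-Osm, against 5.97% of all genes in either direction and 2.89% with AAV-Osm higher. At an adjusted p under 0.05, DESeq2 called 1 of 9 (0.402% of all genes). Voom in limma with quality weights also called 1 of 9 (1.33% of all genes). Both called Txnip. Since Txnip was picked with this comparison in view, nothing is read from these counts. The median log2 fold change of the 9 genes was 0.04, beside 0.01 over all genes, and 6 of the 9 were positive.

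An antisense gene, Gm15441, overlaps 606 of 3123 annotated exon bases of Txnip (19.4%, GENCODE M21) on the opposite strand. The strand setting of the counting is not given in the sources used here, so reads in that stretch cannot be assigned with certainty. Gm15441 itself had 0.997 to 1.85 CPM in AAV-Osm and 0.741 to 2.74 CPM in AAV-Null hearts, far below Txnip in every library.

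Arrdc2 and Arrdc3, whose products are adaptors for ubiquitination and trafficking of membrane receptors, were each high in a different part of the AAV-Osm group. Arrdc2 (chromosome 8, 70835138 to 70839720, minus strand) had 7.81, 9.37, 9.36, 5.14 and 4.51 CPM in AAV-Osm 1 to 5, against 4.36, 5.60, 3.39 and 5.23 CPM in AAV-Null 1 to 4. AAV-Osm 1, 2 and 3 lay above all controls, and AAV-Osm 4 and 5 lay among them. Its log2 fold change was 0.65 (SE 0.25), with means of 7.24 ± 2.30 CPM in AAV-Osm and 4.65 ± 0.987 CPM in AAV-Null hearts (SD, n = 5 and 4). Arrdc3 (chromosome 13, 80883422 to 80896043, plus strand) showed the opposite split of the AAV-Osm libraries. It had 12.2, 10.8, 11.7, 23.5 and 34.2 CPM in AAV-Osm 1 to 5, against 14.5, 14.5, 12.8 and 8.41 CPM in AAV-Null 1 to 4. AAV-Osm 4 and 5 lay above all controls, and AAV-Osm 1, 2 and 3 lay among them.

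The log2 fold change of Arrdc3 was 0.56 (SE 0.33), with means of 18.5 ± 10.2 CPM in AAV-Osm and 12.5 ± 2.87 CPM in AAV-Null hearts (SD, n = 5 and 4). That value rested on AAV-Osm 5: it was 0.21 without that library and 0.05 without AAV-Osm 5 and AAV-Null 4. Arrdc3 had the widest relative spread of the 9 genes in AAV-Osm hearts, with a coefficient of variation of 55.2%, beside 22.9% in AAV-Null hearts. The ratio of Arrdc3 to Arrdc2 per length was 0.898, 0.664, 0.715, 2.62 and 4.35 in AAV-Osm 1 to 5, against 1.91, 1.48, 2.16 and 0.922 in AAV-Null 1 to 4. AAV-Osm 1, 2 and 3 had the lowest ratios of all libraries and AAV-Osm 4 and 5 the highest, so the controls lay between these subsets of the AAV-Osm group. This split was noticed after the values were seen.

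**Figure D3:**
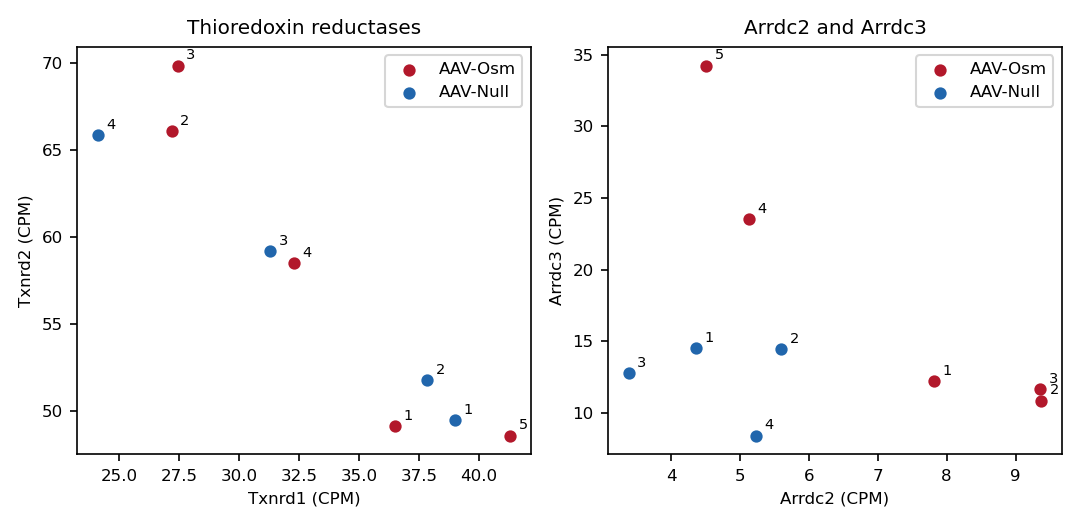
CPM of Txnrd2 against Txnrd1 (left) and of Arrdc3 against Arrdc2 (right) in each library, with AAV-Osm and AAV-Null in different colours and numbers naming the replicate. The reductases run in opposite directions with both groups mixed along the line, and AAV-Osm 1, 2 and 3 stand apart for Arrdc2 and AAV-Osm 4 and 5 for Arrdc3.

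Arrdc1 and Arrdc4 differed less between groups than within them. Arrdc1, which has a part in budding of vesicles at the plasma membrane, had 3.61 to 6.02 CPM in AAV-Osm and 4.31 to 6.65 CPM in AAV-Null hearts, with a log2 fold change of 0.04 (SE 0.20). Its lowest value was in AAV-Osm 5, where Arrdc3 was highest. Arrdc4, known like Txnip as a target of MondoA and ChREBP, had 11.3, 9.81, 10.9, 12.2 and 10.8 CPM in AAV-Osm 1 to 5, against 9.17, 9.92, 11.9 and 11.9 CPM in AAV-Null 1 to 4. Its libraries were the most alike of the 9 genes in the AAV-Osm group (coefficient of variation 7.81%), and its log2 fold change was 0.03 (SE 0.14). Txnip thus stood 1.91-fold higher in AAV-Osm than in AAV-Null hearts, beside 1.02-fold for Arrdc4. The part of MondoA and ChREBP in the levels of either gene was not tested.

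**Figure D4:**
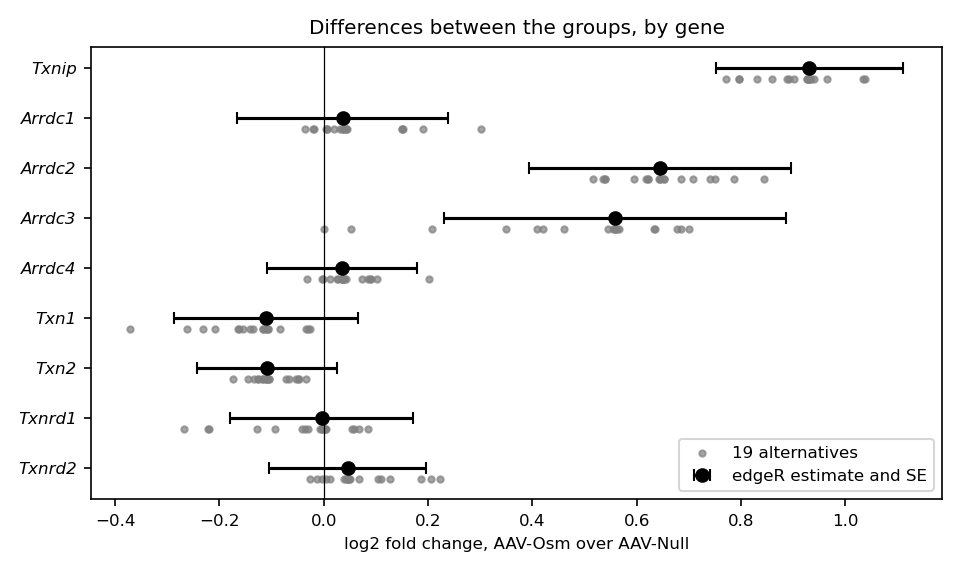
Log2 fold change of each gene, AAV-Osm over AAV-Null, from edgeR with its SE (black) and under 19 alternative settings (grey). Txnip lies at 0.93 and stays between 0.77 and 1.04 under the alternatives, and Arrdc3 ranges from 0.00 to 0.70. The edgeR estimates of the thioredoxin and reductase genes lie around 0. Their alternatives reach -0.37 for Txn1, -0.17 for Txn2, -0.27 for Txnrd1 and 0.22 for Txnrd2.

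Neither thioredoxin gene differed between the groups beyond its spread in the edgeR fit. Txn1 (chromosome 4, 57943373 to 57956411, minus strand) had 75.8, 58.5, 56.4, 98.9 and 84.1 CPM in AAV-Osm 1 to 5, against 85.3, 93.8, 71.8 and 71.9 CPM in AAV-Null 1 to 4. The groups overlapped, and AAV-Osm hearts held both the highest and the lowest values. Its log2 fold change was -0.11 (SE 0.18) in edgeR and -0.37 (SE 0.15) in voom with quality weights. Txn2 (chromosome 15, 77915051 to 77928994, minus strand) had 241, 304, 304, 340 and 259 CPM in AAV-Osm 1 to 5, against 295, 306, 312 and 336 CPM in AAV-Null 1 to 4. AAV-Osm 1 and AAV-Osm 5 lay below all controls and the others among or above them, with a log2 fold change of -0.11 (SE 0.13). Txn2 exceeded Txn1 per length by 2.53-fold to 4.42-fold in AAV-Osm and by 2.68-fold to 3.83-fold in AAV-Null hearts.

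The level of Txnip relative to its binding partner therefore differed in the way Txnip itself did. Per length, Txnip was 1.52, 2.55, 3.23, 1.99 and 2.15 times Txn1 in AAV-Osm 1 to 5, against 1.003, 1.11, 1.23 and 0.941 times in AAV-Null 1 to 4. The ratio averaged 2.29 ± 0.641 in AAV-Osm and 1.07 ± 0.126 in AAV-Null hearts (SD, n = 5 and 4), and the groups did not overlap. Relative to Txn2, Txnip averaged 0.693 ± 0.108 in AAV-Osm and 0.340 ± 0.0699 in AAV-Null hearts, again with no overlap. These are ratios of transcripts and carry the same difference of Txnip a further time.

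**Figure D5:**
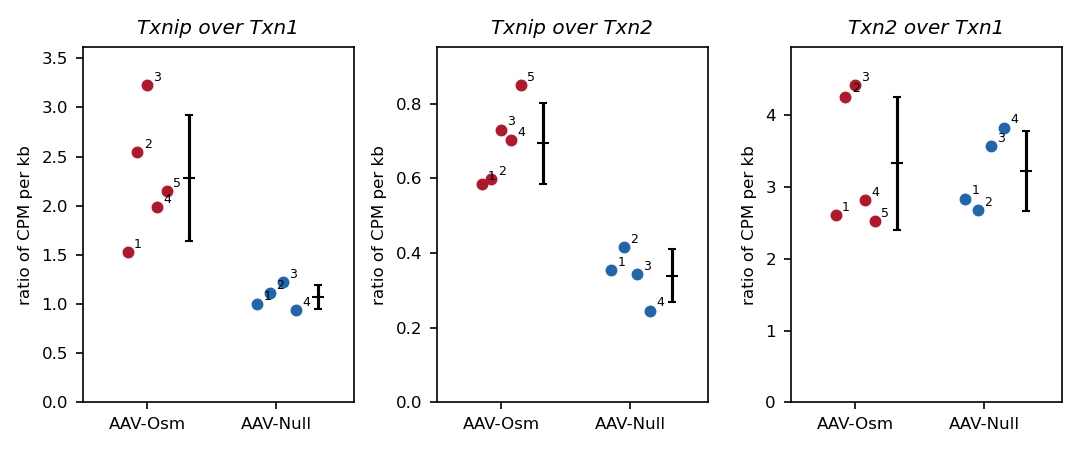
Ratios of CPM per kb between Txnip, Txn1 and Txn2 in each library, AAV-Osm left of AAV-Null; numbers name the replicate, and bars give the mean and SD (n = 5 and 4). Both ratios with Txnip on top are higher in every AAV-Osm library than in any AAV-Null library, and the ratio of Txn2 to Txn1 overlaps.

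The reductases ran against each other from library to library, in both groups. Txnrd1 (chromosome 10, 82833951 to 82897724, plus strand) had 36.5, 27.2, 27.4, 32.3 and 41.3 CPM in AAV-Osm 1 to 5, against 39.0, 37.8, 31.3 and 24.1 CPM in AAV-Null 1 to 4. Txnrd2 (chromosome 16, 18426417 to 18479073, plus strand) had 49.1, 66.1, 69.9, 58.5 and 48.6 CPM in AAV-Osm 1 to 5, against 49.5, 51.8, 59.2 and 65.9 CPM in AAV-Null 1 to 4. AAV-Osm 5, AAV-Osm 1, AAV-Null 1 and AAV-Null 2 were the highest in Txnrd1 and the lowest in Txnrd2, and AAV-Null 4, AAV-Osm 2 and AAV-Osm 3 were the lowest in Txnrd1 and the highest in Txnrd2. Per length, Txnrd2 over Txnrd1 ran from 2.48 to 5.37 in AAV-Osm and from 2.68 to 5.76 in AAV-Null hearts, a spread within each group that exceeded the difference of their means (3.93 ± 1.31 in AAV-Osm, 3.83 ± 1.41 in AAV-Null). The log2 fold changes between the groups were 0.00 (SE 0.18) for Txnrd1 and 0.05 (SE 0.15) for Txnrd2.

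This opposite pattern followed the main axis of variation of the whole table. Scores on the first principal component were 38.5 in AAV-Osm 5, 23.4 in AAV-Null 1, 20.1 in AAV-Null 2 and 6.94 in AAV-Osm 1, the 4 libraries highest in Txnrd1. They were -9.24 in AAV-Osm 2, -14.6 in AAV-Null 3, -23.7 in AAV-Osm 3 and -44.8 in AAV-Null 4, the 4 libraries lowest in Txnrd1. The summed cardiomyocyte markers were 76545, 74537 and 75219 CPM in AAV-Osm 2, AAV-Osm 3 and AAV-Null 4, the libraries highest in Txnrd2, and 56696, 58659, 60995 and 62244 CPM in AAV-Osm 1, AAV-Osm 5, AAV-Null 1 and AAV-Null 2. The remaining libraries did not keep this order: AAV-Osm 4 with 73327 CPM and AAV-Null 3 with 61931 CPM of these markers had nearly the same Txnrd2 level. The part of library composition in the pattern was not tested.

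Pathway genes around these members were read from 11 lists with 146 distinct tested genes. Of these, 1 rose (Dbp) and 1 fell (Ddit4) at an adjusted p under 0.05 in edgeR's quasi-likelihood test. That was 1.37% of the listed genes, beside 0.121% of all genes. The lists were chosen with earlier results of these data known, so nothing is read from this count. In the list of peroxiredoxins, methionine sulfoxide reductases and ribonucleotide reductase subunits, 0 of 14 genes passed, with a median log2 fold change of 0.08. Prdx5 and Prdx2, peroxiredoxins that thioredoxin keeps reduced, had log2 fold changes of -0.16 (SE 0.15) and 0.09 (SE 0.13). Prdx1 and Prdx6 had -0.18 (SE 0.14) and 0.20 (SE 0.16). Of 20 other genes with a thioredoxin fold, 0 passed (median -0.03). P4hb, protein disulfide isomerase, had a log2 fold change of -0.04 (SE 0.12).

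In the parallel glutathione and glutaredoxin system 0 of 16 genes passed (median -0.05). The most abundant of them, the glutathione peroxidases Gpx4 and Gpx3, had log2 fold changes of -0.14 (SE 0.17) and -0.17 (SE 0.26), and Gpx1 had -0.26 (SE 0.16). The sign of Gpx3 turned without AAV-Osm 5 and AAV-Null 4 (0.34). Of 11 genes for the synthesis of selenoproteins, which include the reductases, 0 passed (median -0.03), with Secisbp2, which reads the selenocysteine signal, at 0.18 (SE 0.17). In the NRF2 axis 0 of 13 passed (median -0.04). Abcc1, a glutathione conjugate exporter, had the smallest p there, at a log2 difference of 0.52 (SE 0.17) and an adjusted p of 0.575 in edgeR.

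Of the 12 tested genes of the Mlx and Max network, 0 passed (median 0.06). Mlxip, which encodes MondoA, had a log2 fold change of 0.14 (SE 0.14). Mlxipl, which encodes ChREBP, had 0.38 (SE 0.20, edgeR adjusted p = 0.883), and their partner Mlx was at 15.9 ± 2.05 CPM in AAV-Osm and 17.8 ± 2.54 CPM in AAV-Null hearts (SD, n = 5 and 4); both were added after their values were seen. Mycn and Mxd3 had log2 fold changes of -1.04 (SE 0.44) and -1.10 (SE 0.38) at low levels, 1.15 CPM in AAV-Osm and 2.42 CPM in AAV-Null hearts for Mycn and 0.302 CPM in AAV-Osm and 0.668 CPM in AAV-Null hearts for Mxd3. The Mycn difference was larger without AAV-Osm 5, where Mycn was highest of its group. Leaving out the highest library of the lower group must widen a difference, so nothing is read from this. With all libraries the edgeR adjusted p of Mycn was 0.796. Its log2 fold change was -1.64 without AAV-Osm 5 (edgeR adjusted p = 0.294). Without AAV-Osm 5 and AAV-Null 4 its log2 fold change was -1.88 (edgeR adjusted p = 0.0335). In voom with quality weights it was -1.83. Among 13 genes of glucose uptake and phosphorylation, 0 passed (median 0.07). Pfkfb3, which makes the activator of phosphofructokinase, had 0.79 (SE 0.22, edgeR adjusted p = 0.487), and the groups did not overlap, at 5.41 CPM in AAV-Osm and 3.16 CPM in AAV-Null hearts.

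Of 17 NEDD4-family ligases and sorting partners of alpha-arrestins, 0 passed (median -0.02). The log2 difference of Nedd4 itself was 0.02 (SE 0.28), and Ndfip2, an adaptor that activates these ligases, had -0.34 (SE 0.21). Of 5 other genes with an arrestin fold 0 passed (median 0.11), and the beta-arrestin gene Arrb1 had 0.35 (SE 0.17, edgeR adjusted p = 0.866). Across the 9 lists with no gene past the threshold in edgeR, 4 of 121 genes had an unadjusted p under 0.05. Over all 11 lists it was 10 of 146 (6.85%), beside 5.97% of all genes tested. In the 9 lists with no gene past the threshold in edgeR, DESeq2 called 0 genes. There limma's voom with quality weights, which called 1.33% of all genes, called 3 (Mycn, Pdia4 and Wwp2). Over all 11 lists DESeq2, which called 0.402% of all genes, called 4 of 146 (Dbp, Ddit4, Per1 and Arntl). Voom with quality weights called these and the 3 above, 7 in all.

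Ddit4, whose product REDD1 is known to bind TXNIP and restrains mTORC1, fell, with a log2 difference of -1.15, SE 0.19 and an adjusted p of 0.0427 in edgeR. It was the only one of 8 listed binding partners of TXNIP or thioredoxin to pass. It had 27.0, 24.8, 30.1, 34.0 and 19.4 CPM in AAV-Osm 1 to 5, against 51.9, 60.6, 45.5 and 82.4 CPM in AAV-Null 1 to 4. Every AAV-Osm library was below every control, the reverse of Txnip. The call held in 1 of 9 fits that each left out 1 library, the fit without AAV-Null 3 (edgeR adjusted p = 0.0413); in the other 8 the adjusted p ran from 0.0713 to 0.167. Map3k5, the stress kinase ASK1 that reduced thioredoxin inhibits, had 38.0 CPM in AAV-Osm and 27.7 CPM in AAV-Null hearts, with groups that did not overlap, a log2 fold change of 0.45 (SE 0.14) and an edgeR adjusted p of 0.552.

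A further list held 17 genes of FoxO, glucocorticoid, PPAR, clock and other factors, read as possible regulators of Txnip transcription. Dbp, a transcription factor driven by the circadian clock, rose, with a log2 difference of 1.47, SE 0.24 and an adjusted p of 0.0369 in edgeR. Of the list, 0 fell and 16 did not pass. Whether Dbp acts on Txnip was not tested. Dbp averaged 122 ± 26.3 CPM in AAV-Osm and 44.1 ± 15.04 CPM in AAV-Null hearts (SD, n = 5 and 4). Its call held without AAV-Osm 4 (edgeR adjusted p = 0.0316) and without AAV-Null 4 (0.0127). It was lost without each of the other 7 libraries, with adjusted p from 0.0693 to 0.1496. Per1 and Arntl, parts of the clock, had log2 fold changes of 0.61 (SE 0.13) and -1.19 (SE 0.25) and did not pass in edgeR (adjusted p = 0.171 and 0.186). DESeq2 and voom with quality weights called both, and voom without weights called neither. Per1 had an adjusted p of 0.00121 in DESeq2 and 0.0132 in voom with quality weights, and Arntl had 0.00448 in DESeq2 and 0.00718 in voom with quality weights. By library, Dbp had 137, 151, 125, 80.9 and 117 CPM in AAV-Osm 1 to 5, against 41.5, 26.1, 46.1 and 62.7 CPM in AAV-Null 1 to 4. Every AAV-Osm library was above every control, as for Txnip. Within the AAV-Osm group Dbp was lowest in AAV-Osm 4, where Txnip was highest. Within the controls Dbp was lowest in AAV-Null 2, where Txnip was highest, and highest in AAV-Null 4, where Txnip was lowest. The labels give no collection times, and the part of the time of day in the Txnip values was not tested. The glucocorticoid receptor gene Nr3c1 and Ppara had log2 fold changes of -0.06 (SE 0.15) and -0.20 (SE 0.15).

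The genes most like Txnip were sought among 9475 genes with a mean of at least 5 CPM, by Pearson's r of log2 CPM over the 9 libraries, as a description. The libraries share depth and composition, and r over all 9 also holds the difference between groups. Pik3ip1, an inhibitor of phosphoinositide 3-kinase, was the closest (r = 0.98), with 46.4, 51.5, 60.8, 70.3 and 70.9 CPM in AAV-Osm 1 to 5, against 40.8, 42.6, 38.3 and 29.5 CPM in AAV-Null 1 to 4. AAV-Osm 1 was the lowest of its group and AAV-Null 4 the lowest of all, as for Txnip. Mxd1, a partner of Max, followed (r = 0.97), and then Thada (0.94), Dopey2 (0.91) and Abcc8 (0.91). Mxd1 and Thada lay near the minimum of 5 CPM. Most of these 5 places depended on the measure: 1 of the 5 genes remained among the closest with Spearman's rho, and 3 did with no minimum CPM. Rhoc (r = -0.91) and Cox7a2l (r = -0.91) ran most against it. After group means were subtracted, Nr4a1 (0.95), Srf (0.95), Gtpbp2 (0.94), Ankrd23 (0.94) and Abhd14a (0.93) were the closest, and Pde1a (-0.95) and Acsm5 (-0.95) the most opposed. An r beyond 0.9 in either direction was reached by 8 genes over all libraries and by 35 after group means were subtracted. Nr4a1 and Srf encode transcription factors of the early response to growth and stress signals.

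Among the other 8 members, Arrdc3 was the most like Txnip in both forms (r = 0.61 over all libraries and 0.62 after group means were subtracted). Arrdc4 had r = 0.08 and -0.13, Txn1 had -0.05 and 0.37, and Arrdc2 had 0.42 and -0.32. The 6 immediate early genes listed as signs of tissue handling summed to 166, 153, 342, 290 and 284 CPM in AAV-Osm 1 to 5, against 251, 319, 294 and 202 CPM in AAV-Null 1 to 4. AAV-Osm 1 and 2 were lowest in this sum and also lowest of their group in Txnip, and AAV-Null 4 was the lowest control in both. The groups overlapped in this sum and did not in Txnip, and the part of tissue handling in the Txnip values was not tested.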

How the data were processed

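RNA from 9 heart apex samples was sequenced as 75 base paired ends from mRNA-enriched KAPA libraries, per the labels' protocols. The submitters' processing notes name the build mm10 and the tools STAR 2.5.2b, Subread 1.5.1 and featureCounts. The annotation, strand setting and handling of multimapping reads are not given in those sources. The authors deposited whole-number counts for each gene, with 1 column per library named as the sample titles. Blank rows (4141) were left out. Each gene exceeded 0.5 CPM in 4 or more libraries; lower ones were not analysed here. No pair of libraries held identical values, and the closest pair differed by 6.52 times counting noise (chi-square per degree of freedom, AAV-Null 1 with AAV-Null 2).

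AAV-Osm was compared with AAV-Null by edgeR 4.0.16 (R 4.3.3), quasi-likelihood F test, two-sided, robust, TMM factors, group as the only term, filterByExpr (0 genes removed), with Benjamini-Hochberg adjustment over 13192 genes and a threshold of 0.05. CPM values use TMM factors; SD is between libraries; fold changes on the log2 scale set AAV-Osm over AAV-Null. The standard error is the fold change over the square root of F. Log2 CPM for correlations and the principal component used a prior count of 2. The test was checked on simulated counts with 50 genes changed at each fold. It recovered 15 at 1.5-fold, 34 at 2-fold, 49 at 3-fold and 50 at 4-fold. A gene that did not pass may therefore still differ, above all by less than 2-fold.

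Replicate numbers only name libraries and pair none. Alternatives were other scalings, filters, DESeq2 1.42.0, limma 3.58.1 and left-out libraries. In each list the genes past the threshold, up to 2 others with the smallest p and the 2 of highest CPM could be named; Mlx and Mlxipl, and Pdia4 and Wwp2 from another tool's calls, fall outside that rule. The 9 genes and all lists were chosen with earlier results of these data known.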

Additional observations from a re-analysis of the deposited data

Results flagged for a closer look

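None of the 9 genes had a library far from the rest of its group by Dixon's criterion for the gap of the most extreme library. Among 148 groups of libraries checked over these genes, their ratios and the other named genes, 8 did, where chance flags about 1 group in 20. In AAV-Osm hearts, Prdx6 was low in AAV-Osm 4 (163 CPM, against 216 to 232 CPM in the others), and Cops5 was low in the same library (38.2 CPM, against 63.8 to 73.5 CPM). In AAV-Osm 5, Mycn was high (2.66 CPM, against 0.545 to 0.897 CPM) and Ggt7 was low (0.855 CPM, against 1.47 to 1.65 CPM). Slc2a3 was low in AAV-Osm 2 (1.58 CPM, against 2.31 to 2.56 CPM). In AAV-Null hearts, Gpx1 was high in AAV-Null 4 (197 CPM, against 122 to 134 CPM), and in AAV-Null 3 Vps26b was high (35.8 CPM, against 28.2 to 29.2 CPM) and Zbtb16 was low (33.5 CPM, against 67.8 to 72.9 CPM). No cause was tested for these libraries.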

How the results depend on the processing

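Under 19 alternatives the log2 fold change of Txnip kept its sign and ran from 0.77 to 1.04, and that of Arrdc2 from 0.52 to 0.84. That of Arrdc3 ran from 0.00 (limma-voom with quality weights) to 0.70. Signs turned for Txnrd1 in 7 alternatives and for Arrdc1, Arrdc4 and Txnrd2 in 3 each. Txnrd1 ran from -0.27 to 0.08 and Txnrd2 from -0.03 to 0.22. Txn1 stayed negative, from -0.37 (limma-voom with quality weights) to -0.03. Of the 9 genes, DESeq2 called 1 and limma-voom with quality weights 1 (Txnip by both), and 0 with any 1 library left out or under the other alternatives. Over all genes 16 passed, with 53 in DESeq2, 176 in limma-voom with quality weights, 5 among genes of at least 5 CPM and 4 to 11 with 1 library left out. Of the listed pathway genes 2 passed, with 4 in DESeq2, 7 in limma-voom with quality weights, 1 in limma-voom without weights, 0 among genes of at least 5 CPM, 1 without AAV-Null 3 and AAV-Null 4, and 0 to 1 with 1 library left out. The Ddit4 call was lost in 12 of 19 alternatives (adjusted p 4.84e-05 to 0.167) and the Dbp call in 8 (3.13e-06 to 0.1496). In the order of levels all 9 genes kept their places under total counts, and 7 did without AAV-Null 3. Of the 5 genes most like Txnip, 1 remained with Spearman's rho and 3 with no minimum CPM. The cause of these shifts was not tested. No paired analysis was possible because the labels give no replicate numbers. Genes under about 5 CPM rest on few reads: Arrdc2 had 59 to 196 counts per library.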
